A study of Mus musculus with 6 samples.

Results

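The nuclear genes that encode subunits of the mitochondrial respiratory chain were compared between mouse embryonic stem cells with intact, deleted or substituted METTL3. They were taken by gene symbol, as the structural NADH dehydrogenase (Nduf), succinate dehydrogenase (Sdh), ubiquinol-cytochrome c reductase (Uqcr), cytochrome c oxidase (Cox4 to Cox8) and ATP synthase (Atp5) genes, with Ndufa4l2 and symbols marked -ps left out. This gave 84 of the 24984 gene symbols in the table: 36 of complex I, 4 of complex II, 8 of complex III, 19 of complex IV and 17 of complex V. Ndufa4, named after complex I, was counted with complex IV, where its protein is now placed. The rule does not reach Ndufab1 and Cyc1, which are given with the other genes of the pathway, and genes of the mitochondrial genome were not analysed here.

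All 6 libraries came from the mouse embryonic stem cell line E14TG2a, grown in N2B27, a serum-free medium. Unmodified cells (WT), a METTL3 knockout line made with CRISPR/Cas9 (KO) and a line in which CRISPR/Cas9 had introduced the METTL3 D395A substitution (D395A) gave 2 libraries each. METTL3 is the enzyme that places N6-methyladenosine on messenger RNA, and the D395A substitution lies in its catalytic motif. The labels describe each mutant as 1 cell line and name no separate clones, so genotype and the history of a line cannot be told apart. They also leave unstated if replicates were grown as separate cultures, and p-values therefore measure only the spread between these libraries.

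The respiratory chain passes electrons from NADH (complex I) and succinate (complex II) through coenzyme Q to complex III, cytochrome c and complex IV, where oxygen is reduced. Complexes I, III and IV pump protons across the inner membrane, and complex V, the ATP synthase, uses the gradient to make ATP. All of these complexes except complex II combine subunits made in the mitochondrion with subunits of nuclear genes, and several complex IV subunits exist as ubiquitous and tissue-restricted isoforms. Embryonic stem cells rely on glycolysis as well as on respiration, and the balance shifts between pluripotent states.

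Gene counts ranged from 22859491 in D395A replicate 1 to 40476809 in WT replicate 1, and levels are given as normalised read counts (CPM, scaled to a common library size). Mettl3 itself was at 28.5 and 31.5 CPM (WT), 7.82 and 6.16 CPM (KO) and 21.1 and 23.4 CPM (D395A). The summed level of 10 embryonic stem cell markers, all of them detected, was 4378 to 4443 CPM (WT), 5155 to 5187 CPM (KO) and 2079 to 2139 CPM (D395A). Past an adjusted p of 0.05, 5 of these rose and 3 fell in KO (50% and 30%), and 0 rose and 9 fell in D395A (0% and 90%). Among all genes tested, 33.6% rose and 32.6% fell in KO, and 36.3% rose and 34% fell in D395A. In KO Nanog rose most, from 931 and 910 CPM (WT) to 1545 and 1609 CPM. Tdgf1, Utf1 and Zfp42 fell in KO (log2 fold changes of -0.63, -0.81 and -0.32). The summed level of 10 fibroblast and feeder markers was 171 to 172 CPM (WT), 67.1 to 70.9 CPM (KO) and 116 to 125 CPM (D395A). The fall of this sum is mostly that of Vim, at 141 and 142 CPM (WT), 42.6 and 46.8 CPM (KO) and 102 and 111 CPM (D395A). Pdgfrb and Col1a1 also fell in both lines (log2 fold changes of -0.57 and -0.67 in KO, -1.43 and -1.86 in D395A). Thy1 rose in KO (1.38, adjusted p = 0.00052) and fell in D395A (-2.60, adjusted p = 2.5e-05). In D395A Col3a1 rose from 0 in WT to 0.511 and 0.638 CPM, and Dcn from 0 to 1.62 and 0.942 CPM. Pdgfra changed past an adjusted p of 0.05 in neither line. Col1a2, Postn and Lum were under 0.4 CPM in every library. The part of these differences in the results below was not tested. In bulk RNA, fewer cells of a type and less RNA per cell cannot be told apart.

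Of the 84 genes, 77 had enough counts for testing and 7 did not. Ndufs3, a core subunit of complex I, Ndufs5, an accessory subunit, Uqcrc1, a core subunit of complex III, and Atp5a1, the alpha subunit of the ATP synthase head, were listed at 0 in all 6 libraries. Every respiring cell uses these 4 genes, so their zeros are not read as absence of expression; 4880 symbols, 19.5% of the table, were at 0 throughout. The remaining 3, Ndufb4c, Cox8b and Cox8c, had 12, 6 and 5 counts over all libraries. Cox8b, a muscle isoform, and Cox8c, a testis isoform, are tissue-restricted.

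The subunit genes did not move as a block. In KO against WT, 34 of the 77 rose and 18 fell past an adjusted p of 0.05 in edgeR's quasi-likelihood test, where 33.6% of all 15663 genes tested were called higher and 32.6% lower. In D395A against WT, 28 rose and 25 fell, against 36.3% higher and 34% lower among all genes. As shares of the 77, these are 44.2% higher and 23.4% lower in KO, and 36.4% higher and 32.5% lower in D395A. The D395A shares lie close to those of all genes, and in KO the higher share was above and the lower share below them. Both comparisons use the same 2 WT libraries.

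Most differences were small. The median log2 fold change of the 77 was 0.11 in KO and 0.11 in D395A, where the medians over all genes were 0.01 and 0.02. In absolute terms 58 of the 77 in KO and 59 in D395A were under 0.5 on the log2 scale. At least 2-fold changes passed the test for 3 genes in KO (Cox6b2, Cox4i2 and Cox7b2) and 4 in D395A (the same and Atp5g1). The summed level of all members was 6881 and 6857 CPM in WT cells, 6999 and 7152 CPM in KO cells and 7238 and 6656 CPM in D395A cells, so the D395A libraries lay on both sides of the WT libraries.

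**Figure D1:**
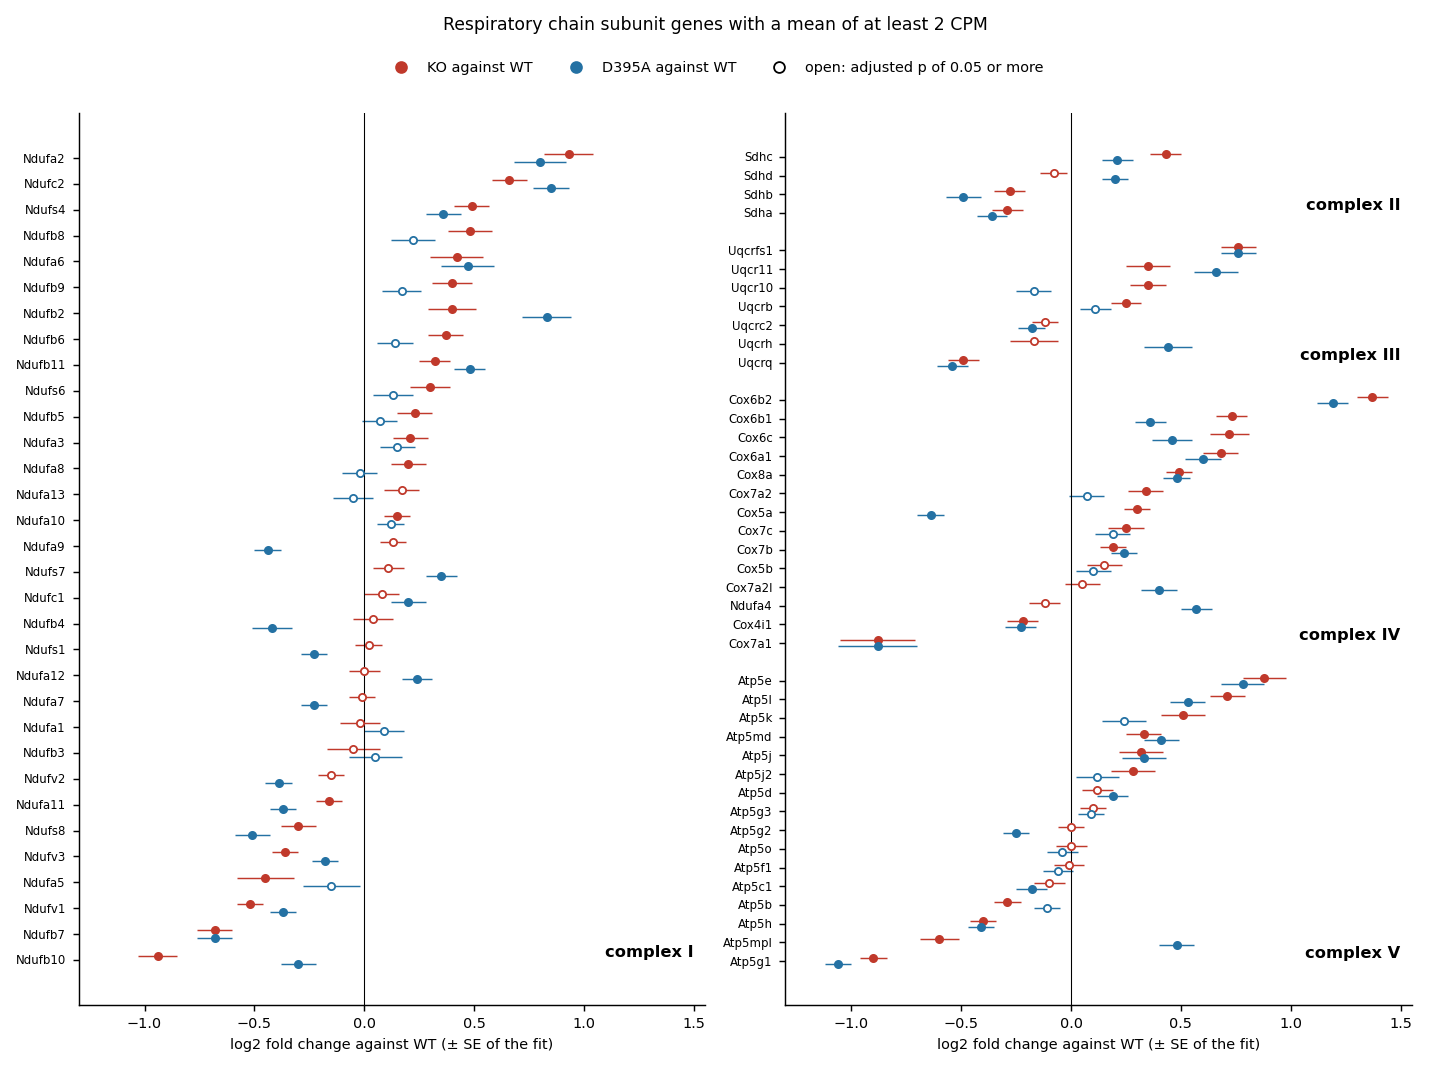
Log2 fold change (± SE of the fit) of 73 of the 74 subunit genes with a mean of at least 2 CPM, KO against WT in red and D395A against WT in blue, grouped by complex and ordered by the KO value. Genes of every complex lie on both sides of 0, from -0.94 (Ndufb10) to 1.37 (Cox6b2) in KO and from -1.06 (Atp5g1) to 1.19 (Cox6b2) in D395A.

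By complex, KO against WT gave 14 higher and 7 lower of 33 tested for complex I, 1 and 2 of 4 for complex II, 4 and 1 of 7 for complex III, 9 and 4 of 17 for complex IV, and 6 and 4 of 16 for complex V. D395A against WT gave 9 higher and 12 lower for complex I, 2 and 2 for complex II, 3 and 2 for complex III, 8 and 5 for complex IV, and 6 and 4 for complex V. Of all genes tested, 33.6% were higher and 32.6% lower in KO, and 36.3% and 34% in D395A. The KO shares were 42.4% and 21.2% (complex I), 25% and 50% (II) and 57.1% and 14.3% (III). For complexes IV and V they were 52.9% and 23.5%, and 37.5% and 25%. The D395A shares were 50% and 50% (II), 42.9% and 28.6% (III), 47.1% and 29.4% (IV) and 37.5% and 25% (V). For complex I the D395A counts are 27.3% higher and 36.4% lower, and their order was not stable: 11 were higher and 9 lower without D395A replicate 2. Other counts by complex rest on single libraries too. Without WT replicate 1, KO gave 7 complex I genes higher in place of 14, 1 complex II gene lower in place of 2 and 2 complex IV genes lower in place of 4. The last count was 2 without WT replicate 2 or KO replicate 1 as well, and complex III gave 2 lower in place of 1 without WT replicate 2. In D395A, complex II gave 0 higher in place of 2 without either WT library and 1 without D395A replicate 2, complex III gave 1 lower in place of 2 without either WT library, and complex IV gave 3 lower in place of 5 without WT replicate 2 or D395A replicate 2. Complex V gave 9 higher in place of 6 without D395A replicate 2.

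**Figure D2:**
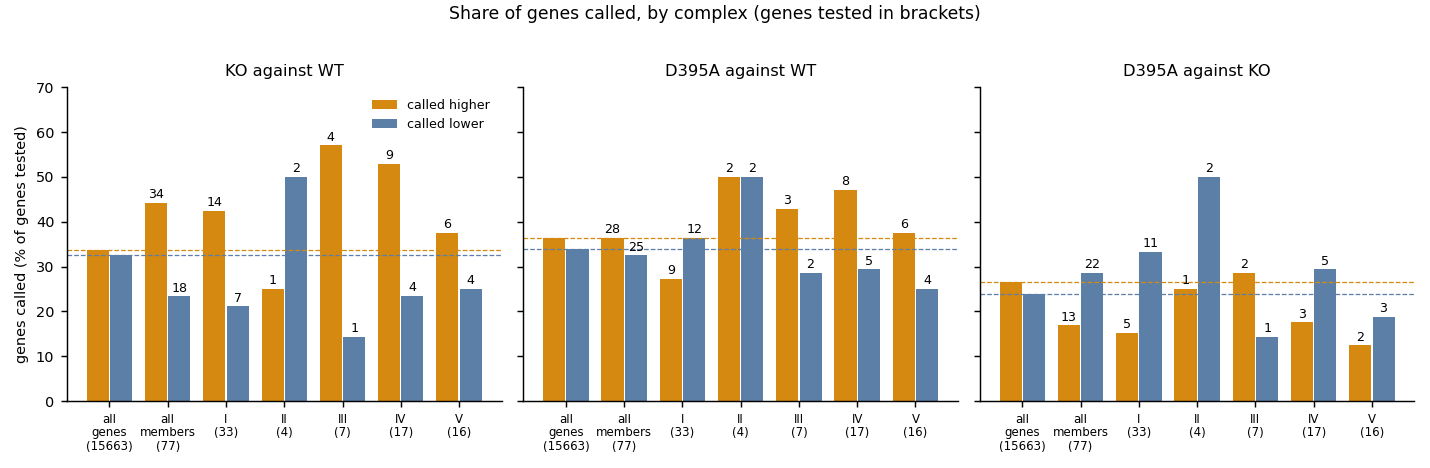
Share of tested genes called higher (orange) and lower (blue) at an adjusted p under 0.05, for all genes, all tested members and each complex; numbers above the bars are gene counts and dashed lines carry the shares over all genes across. The complex I bar for lower calls rises from 7 genes in KO against WT to 12 in D395A against WT.

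The promoters of these genes are known to be rich in sites for the nuclear respiratory factors NRF1 and GABP, the latter an ETS factor, and for YY1. RefSeq promoter windows (GRCm38.p6, 250 bases before to 50 after a start) were at hand for 67 of the 84 genes, in 72 windows. On either strand, the NRF1 letters GCATGCGC stood in 13.9% of these windows and in 2.71% of all 32851 windows of the same length. The ETS site CCGGAAG stood in 23.6% against 8.86%, and the YY1 site AAGATGGC in 12.5% against 2.75%. None of the 3 motifs was found by these letters in 37 genes. Of 6 windows that hold 2 of the motifs, 5 belong to genes called in both mutant lines, 1 that fell and 4 that rose. The rises include Atp5l (ETS and NRF1) and Atp5j (ETS and YY1), whose values are given with complex V, and the sixth gene, Atp5k, rose in KO alone past the test. The 3 windows below are shown as examples of the ETS and NRF1 pair in the complexes of the electron chain: Sdhb (chr4:140961021-140961320, plus strand) fell, and Cox6a1 (chr5:115348909-115349208, minus strand) and Uqcr11 (chr10:80406772-80407071, minus strand) rose. Capitals mark the NRF1 and ETS letters; in Cox6a1, 2 NRF1 matches on opposite strands overlap.
Sdhb: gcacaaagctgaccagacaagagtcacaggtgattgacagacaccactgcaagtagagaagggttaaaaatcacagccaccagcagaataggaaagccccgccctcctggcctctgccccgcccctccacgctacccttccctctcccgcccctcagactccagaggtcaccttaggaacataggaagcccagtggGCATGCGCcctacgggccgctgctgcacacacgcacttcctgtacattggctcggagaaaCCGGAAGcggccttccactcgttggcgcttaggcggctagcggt
Cox6a1: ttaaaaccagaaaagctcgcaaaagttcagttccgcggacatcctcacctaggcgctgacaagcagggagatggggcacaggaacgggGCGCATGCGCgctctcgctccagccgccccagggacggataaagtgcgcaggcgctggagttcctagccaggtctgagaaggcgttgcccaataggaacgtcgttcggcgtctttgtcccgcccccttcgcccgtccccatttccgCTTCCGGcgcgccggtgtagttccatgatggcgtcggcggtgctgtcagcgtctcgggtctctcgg
Uqcr11: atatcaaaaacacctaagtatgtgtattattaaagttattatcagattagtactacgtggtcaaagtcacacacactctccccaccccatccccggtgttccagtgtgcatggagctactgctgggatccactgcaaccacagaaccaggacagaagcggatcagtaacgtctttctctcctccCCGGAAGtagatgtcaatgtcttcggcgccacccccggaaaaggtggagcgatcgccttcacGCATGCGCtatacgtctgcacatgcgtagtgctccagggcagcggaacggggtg
Genes with an ETS or NRF1 match were called in both directions. Of the 17 genes with an ETS match, 10 rose and 4 fell in KO, and 10 rose and 4 fell in D395A. Of the 10 with an NRF1 match, 6 rose and 2 fell in KO, and 4 rose and 3 fell in D395A. Of the 9 with a YY1 match, 6 rose and 0 fell in KO, and 4 rose and 1 fell in D395A. Of the 37 genes with none of the 3 motifs, 12 rose and 9 fell in KO, and 10 rose and 12 fell in D395A. Among all genes tested, 33.6% rose and 32.6% fell in KO, and 36.3% rose and 34% fell in D395A. Differences between these counts were not tested. The transcript of Yy1 itself was at 86.5 and 80.8 CPM in the WT libraries, against 44.6 and 48.5 CPM in those of KO and 108 and 104 CPM in those of D395A, so it fell in one line and rose in the other. A match of letters is a description and not a bound site.

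The core subunits of complex I, which carry the flavin and the iron-sulfur clusters, mostly fell in D395A. Of the 5 described here 4 fell in D395A and 1 rose, while in KO 2 fell, 0 rose and 3 did not pass the test. Among all genes tested, 34% fell and 36.3% rose in D395A, and 32.6% fell and 33.6% rose in KO. Ndufv1, the flavin-binding subunit that takes electrons from NADH, was at 101 and 103 CPM (WT), 69.8 and 73.3 CPM (KO) and 82.6 and 75.6 CPM (D395A). All 4 mutant libraries lay below both WT libraries, with log2 fold changes of -0.52 ± 0.06 (adjusted p = 1.4e-05) in KO and -0.37 ± 0.06 (adjusted p = 0.00022) in D395A. Its partner Ndufv2, which holds an iron-sulfur cluster beside the flavin, was at 102 and 102 CPM in WT cells, 90.4 and 93.7 CPM in KO cells and 81.4 and 74.2 CPM in D395A cells. It fell by 0.39 on the log2 scale in D395A (adjusted p = 0.00013), and its value of -0.15 in KO did not pass the test (adjusted p = 0.054). The KO value was called under 5 alternatives, at adjusted p between 0.012 and 0.048, among them scaling without chromosomes 8, 11 and Y (-0.21).

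Ndufs8, an iron-sulfur subunit that leads electrons toward the quinone, was at 38.3 and 35.5 CPM in the WT libraries, against 30.1 and 30.0 CPM in those of KO and 27.5 and 24.5 CPM in those of D395A. The 3 groups did not overlap, with -0.30 ± 0.08 (adjusted p = 0.0041) in KO and -0.51 ± 0.08 (adjusted p = 7.5e-05) in D395A. Without WT replicate 1 the KO value was -0.24 and was not called (adjusted p = 0.059). Ndufs1, the largest core subunit, was at 125 and 128 CPM (WT), 127 and 130 CPM (KO) and 106 and 109 CPM (D395A). It fell in D395A (-0.23 ± 0.06, adjusted p = 0.0035), a call that did not hold without WT replicate 2 (-0.22, adjusted p = 0.050), and the D395A-to-KO difference of -0.25 also passed (adjusted p = 0.0037). Ndufs7, which holds the last iron-sulfur cluster before the quinone, went the other way: 41.3 and 38.6 CPM in the WT libraries, against 44.9 and 41.2 CPM in those of KO and 53.0 and 49.1 CPM in those of D395A. It rose by 0.35 ± 0.07 in D395A (adjusted p = 0.00092).

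The accessory subunits of complex I, which surround the core and stabilise it, were called in both directions. In KO 14 of the 27 tested rose and 5 fell (51.9% and 18.5%, against 33.6% and 32.6% of all genes). In D395A 8 rose and 7 fell, 29.6% and 25.9%, both under the 36.3% and 34% of all genes. Ndufa2, a small matrix-arm subunit, was at 21 and 20.8 CPM (WT), 39.2 and 40.4 CPM (KO) and 42.5 and 31.0 CPM (D395A). It was higher in all 4 mutant libraries, by 0.93 ± 0.11 (adjusted p = 1.3e-05) and 0.80 ± 0.12 (adjusted p = 5.1e-05). Of its exon bases, 11.5% lie under exons of Tmco6 on the opposite strand.

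Ndufc2, a membrane-arm subunit (chr7:97400003-97407802), was at 43.4 and 45.5 CPM in WT cells, 71.9 and 68.7 CPM in KO cells and 87.8 and 73.0 CPM in D395A cells. It rose 1.58-fold in KO and 1.80-fold in D395A. Ndufb2, also of the membrane arm, was at 12.9 and 13.7 CPM in the WT libraries, against 17.2 and 17.8 CPM in those of KO and 26.5 and 21.1 CPM in those of D395A. The groups stood in the order WT, KO, D395A without overlap, with 0.40 ± 0.11 (adjusted p = 0.0059) in KO, 0.83 ± 0.11 (adjusted p = 1.7e-05) in D395A and 0.43 ± 0.11 (adjusted p = 0.0042) between the lines. Without WT replicate 1 the KO value was 0.35 and was not called (adjusted p = 0.059), and without D395A replicate 1 the difference between the lines was 0.27 (adjusted p = 0.042).

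The falls included Ndufb10 and Ndufb7, membrane-arm subunits with twin-cysteine motifs that are oxidised in the intermembrane space. Ndufb10 (chr17:24722060-24724478) was at 29.5 and 31.8 CPM (WT), 16.1 and 15.8 CPM (KO) and 26.6 and 23.2 CPM (D395A). KO was lowest, at 0.522 times WT (-0.94 ± 0.09, adjusted p = 8e-07), and D395A lay above KO by 0.63 ± 0.09 (adjusted p = 7e-05). The smaller D395A fall of -0.30 was not called without WT replicate 2 (-0.25, adjusted p = 0.063) or D395A replicate 2 (-0.20, adjusted p = 0.074). Ndufb7 was at 39.6 and 40.4 CPM in WT cells, 24.9 and 25.2 CPM in KO cells and 27.3 and 23.0 CPM in D395A cells, a change of -0.68 in each line. Ndufa8, another complex I subunit of that kind, was at 22.2 and 21.2 CPM in the WT libraries, against 24.0 and 25.8 CPM in those of KO and 22.4 and 20.6 CPM in those of D395A, so the D395A range covered both WT values.

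Ndufa9, which sits at the joint of the arms near the quinone site, and Ndufb4, of the membrane arm, separated the mutant lines. Ndufa9 was at 87.3 and 83.8 CPM (WT), 92.5 and 95.1 CPM (KO) and 62.2 and 63.5 CPM (D395A). Ndufb4 was at 18.1 and 17.7 CPM in WT cells, 18.8 and 18.0 CPM in KO cells and 12.5 and 14.2 CPM in D395A cells. Both fell in D395A (-0.44 and -0.42), and D395A lay below KO, at -0.58 ± 0.06 (adjusted p = 5.9e-06) and -0.46 ± 0.09 (adjusted p = 0.0012). The other accessory genes lay between -0.45 (Ndufa5) and 0.49 (Ndufs4) in KO, and between -0.37 (Ndufa11) and 0.48 (Ndufb11) in D395A.

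Complex II, succinate dehydrogenase, joins the citric acid cycle to the chain, and both of its catalytic subunit genes fell in each mutant line while neither membrane subunit gene did. Sdha, the flavoprotein that oxidises succinate, was at 219 and 214 CPM in the WT libraries, against 167 and 187 CPM in those of KO and 169 and 170 CPM in those of D395A. Sdhb, the iron-sulfur subunit whose promoter window is printed above, was at 79.5 and 77.1 CPM (WT), 65.2 and 64.1 CPM (KO) and 60.5 and 51.4 CPM (D395A). For both genes all mutant libraries lay below WT: Sdha was at -0.29 in KO (adjusted p = 0.0021) and -0.36 in D395A (adjusted p = 0.00047), and Sdhb at -0.28 (adjusted p = 0.0056) and -0.49 (adjusted p = 8e-05). The KO fall of Sdhb was not called without WT replicate 1 (-0.25, adjusted p = 0.062).

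Sdhc and Sdhd anchor the enzyme in the membrane and bind the quinone. Sdhc was at 88.5 and 91.2 CPM in WT cells, 112 and 130 CPM in KO cells and 102 and 106 CPM in D395A cells, above WT in every mutant library (0.43 ± 0.07, adjusted p = 0.00022 in KO; 0.21 ± 0.07, adjusted p = 0.025 in D395A). Sdhd was at 89.1 and 89.0 CPM in the WT libraries, against 84.2 and 84.4 CPM in those of KO and 103 and 101 CPM in those of D395A. It rose in D395A by 0.20 ± 0.06 (adjusted p = 0.0087), and its KO value was -0.08 (adjusted p = 0.24). The D395A rises of Sdhc and Sdhd were both lost without WT replicate 1 (adjusted p = 0.17 and 0.074) and without WT replicate 2 (adjusted p = 0.097 and 0.076), that of Sdhc also without D395A replicate 2 (adjusted p = 0.098), and both when scaled without chromosomes 8, 11 and Y (0.14 and 0.13, adjusted p = 0.11 and 0.065).

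In complex III the Rieske gene Uqcrfs1 gave the largest rise in both lines. Its product carries the mobile iron-sulfur cluster that hands electrons on to cytochrome c1. Uqcrfs1 (chr13:30540308-30545362) was at 102 and 103 CPM (WT), 173 and 175 CPM (KO) and 189 and 159 CPM (D395A), 1.70 and 1.69 times WT (0.76 ± 0.08 and adjusted p = 2.2e-06 in each line). Uqcrc2, the core subunit that could be tested, was at 122 and 124 CPM in WT cells, 111 and 116 CPM in KO cells and 106 and 111 CPM in D395A cells. Its values were -0.12 in KO (adjusted p = 0.10; called with upper quartile scaling, adjusted p = 0.049, and without chromosomes 8, 11 and Y, -0.17, adjusted p = 0.022) and -0.18 in D395A (adjusted p = 0.018), the latter not called without WT replicate 1 (adjusted p = 0.080) or 2 (adjusted p = 0.11).

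The small subunits of complex III diverged. Uqcrq, which binds cytochrome b, was at 160 and 154 CPM in the WT libraries, against 111 and 113 CPM in those of KO and 116 and 100 CPM in those of D395A, which is -0.49 (adjusted p = 5.6e-05) and -0.54 (adjusted p = 2.3e-05) on the log2 scale. Uqcr11, the smallest subunit, was at 30.7 and 28.3 CPM (WT), 37.0 and 38.5 CPM (KO) and 52.5 and 41.4 CPM (D395A). Its window stands above with those of Sdhb and Cox6a1. It rose by 0.35 in KO (adjusted p = 0.0067; not called without WT replicate 2, 0.30, adjusted p = 0.078) and by 0.66 in D395A (adjusted p = 6.2e-05).

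Uqcrh, the acidic hinge protein between cytochromes c1 and c, was at 29.7 and 23.7 CPM in WT cells, 23.3 and 24.3 CPM in KO cells and 39.7 and 33.0 CPM in D395A cells. KO overlapped WT and D395A lay above both, by 0.60 ± 0.11 against KO (adjusted p = 0.0006). Its D395A-to-WT value of 0.44 (adjusted p = 0.0032) was 0.28 and not called without WT replicate 2 (adjusted p = 0.059). Without that library the KO value, -0.17 with all libraries, was -0.32 and was called (adjusted p = 0.038). Uqcr10, a small membrane subunit, was at 109 and 104 CPM in the WT libraries, against 136 and 136 CPM in those of KO and 103 and 86.8 CPM in those of D395A. It rose in KO (0.35, adjusted p = 0.0014), did not pass in D395A (-0.17, adjusted p = 0.075), and was lower in D395A than in KO (-0.52 ± 0.08, adjusted p = 0.00013). The D395A-to-WT value was called without D395A replicate 1 (-0.29, adjusted p = 0.0012), with no filter on low counts (adjusted p = 0.019), with a filter of 1 CPM in 4 libraries (adjusted p = 0.038) and with only the 2 groups fitted (adjusted p = 0.036). Uqcrb rose in KO by 0.25 and was at 0.11 in D395A, which did not pass.

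Complex IV held the largest rise and the largest falls past the test in both lines, in the tissue-restricted isoforms Cox6b2, Cox4i2 and Cox7b2. Among all genes tested, 33.6% rose and 32.6% fell in KO, and 36.3% rose and 34% fell in D395A. Of the 7 ubiquitous isoform genes of complex IV 5 rose and 1 fell in each line (71.4% and 14.3%). Of the 5 tested tissue isoforms 1 rose and 3 fell in each line (20% and 60%). The rise was Cox6b2, known from testis, and the falls were Cox4i2, known from lung and from responses to low oxygen, Cox7a1, a heart and muscle isoform, and Cox7b2, a testis isoform.

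Cox6b2 (chr7:4751792-4753094) was at 20.9 and 20.0 CPM (WT), 51.7 and 54.3 CPM (KO) and 47.5 and 46.2 CPM (D395A). Both lines were far above WT and did not overlap it, at 2.59 times WT in KO (1.37 ± 0.07, adjusted p = 3.3e-09) and 2.29 times in D395A (1.19 ± 0.07, adjusted p = 1.1e-08). Its ubiquitous counterpart Cox6b1, which stabilises the cytochrome c side of the enzyme, also rose: 107 and 110 CPM in WT cells, 177 and 181 CPM in KO cells and 146 and 131 CPM in D395A cells (0.73 ± 0.07, adjusted p = 9.3e-07; 0.36 ± 0.07, adjusted p = 0.00047). Per kilobase of exon, Cox6b2 made up 11.1% and 10.4% of the pair in WT cells, 15.7% and 16.1% in KO cells and 17.2% and 18.4% in D395A cells. The summed level of 8 testis and germline markers went the other way, from 162 and 182 CPM in WT to between 25.4 and 28.2 CPM in the mutant libraries. Dazl, a germ cell RNA-binding protein, made up 135 and 148 CPM of the WT sum and 10.3 to 17 CPM of the mutant sums. Ddx4 did not pass in D395A (-0.29, adjusted p = 0.063). Of these markers, Prm1, Acrv1 and Pgk2, which mark later germ cells, were at 0 in every library.

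Cox4i2 was close to the detection limit, with 114 counts over the 2 WT libraries, 13 in KO and 10 in D395A, that is 1.67 and 1.27 CPM, 0.142 and 0.23 CPM, and 0.213 and 0.139 CPM. WT exceeded KO 7.96-fold, with an exact 95% interval for counting error of 4.48 to 15.4, and D395A 8.82-fold, with an interval of 4.63 to 18.9 (adjusted p = 0.00061 and 0.00054). Cox4i1, its ubiquitous counterpart, was at 235 and 243 CPM in the WT libraries, against 199 and 210 CPM in those of KO and 217 and 189 CPM in those of D395A. Its values of -0.22 (adjusted p = 0.017) and -0.23 (adjusted p = 0.013) were small, and neither was called without WT replicate 1 (adjusted p = 0.077 and 0.059) or WT replicate 2 (adjusted p = 0.14 and 0.11); the KO call was also lost without KO replicate 1 (adjusted p = 0.11) and the D395A call without D395A replicate 2 (adjusted p = 0.055). Per kilobase, Cox4i2 was 1.38% and 1.02% of the pair in WT and 0.14% to 0.216% in the mutant libraries.

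Cox7a1 was at 11.5 and 12.5 CPM (WT), 6.28 and 6.77 CPM (KO) and 8.18 and 5.07 CPM (D395A), a log2 fold change of -0.88 in each line (adjusted p = 0.00061 and 0.00062). Without D395A replicate 2 the D395A value was -0.55 (adjusted p = 0.0066). Its counterpart Cox7a2 was at 41.2 and 42.3 CPM in WT cells, 52.8 and 53.0 CPM in KO cells and 48.3 and 39.8 CPM in D395A cells; it rose in KO by 0.34 (adjusted p = 0.0028), and D395A enclosed the WT range, although without D395A replicate 2 its value was 0.21 and was called (adjusted p = 0.025). The share of Cox7a1 in the pair, per kilobase, was 33% and 34.2% in WT cells, 17.4% and 18.4% in KO cells and 23% and 18.4% in D395A cells. The summed level of 8 muscle and heart markers was 12.8 and 13.9 CPM in the WT libraries, against 20.9 and 21.4 CPM in those of KO and 10.6 and 7.68 CPM in those of D395A. Most of this sum was Des, at 10.7 and 12.3 CPM (WT), 18.9 and 18.6 CPM (KO) and 6.98 and 6.54 CPM (D395A). Of the 8 markers, 4 had too few counts for testing. Cox7a2l, which joins complexes III and IV, was at 45.9 and 46.2 CPM (WT), 50 and 45.3 CPM (KO) and 65.6 and 56.5 CPM (D395A), and rose in D395A by 0.40 (adjusted p = 0.00059).

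Cox7b2 had 64 counts in WT, 20 in KO and 10 in D395A (0.786 and 0.882 CPM, 0.171 and 0.403 CPM, and 0.17 and 0.166 CPM). Its values of -1.53 ± 0.61 in KO (adjusted p = 0.042) and -2.29 ± 0.67 in D395A (adjusted p = 0.0082) depended on the setting. The KO call was lost with DESeq2 (adjusted p = 0.084), with no filter on low counts (adjusted p = 0.060), with the replicate block (adjusted p = 0.062), and without WT replicate 1 (-1.61, adjusted p = 0.13), WT replicate 2 (-1.44, adjusted p = 0.17) or KO replicate 1 (-1.04, adjusted p = 0.24). The D395A call was lost without WT replicate 2 (adjusted p = 0.052) or D395A replicate 2 (adjusted p = 0.055). Cox7b, the ubiquitous form, was at 92.1 and 95.2 CPM in WT cells, 106 and 108 CPM in KO cells and 115 and 106 CPM in D395A cells, called at 0.19 (adjusted p = 0.018) and 0.24 (adjusted p = 0.0048). Its KO call was lost without WT replicate 1 (adjusted p = 0.15), WT replicate 2 (adjusted p = 0.073) or KO replicate 2 (adjusted p = 0.081), or when scaled without chromosomes 8, 11 and Y (0.13, adjusted p = 0.081), and its D395A call without WT replicate 1 (adjusted p = 0.074).

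Cox6a2, the heart and muscle form, had 35 counts in WT, 11 in KO and 32 in D395A. Neither comparison with WT passed (-1.52, adjusted p = 0.066, or 0.039 with only the 2 groups fitted; 0.27, adjusted p = 0.71), and its call between the lines (1.80, adjusted p = 0.045) was lost with DESeq2, without a filter, with the replicate block and without any 1 of the 4 mutant libraries, at adjusted p between 0.069 and 0.21. Cox6a1, the ubiquitous form with the window printed above, was at 84.0 and 90.5 CPM in the WT libraries, against 144 and 135 CPM in those of KO and 143 and 123 CPM in those of D395A. All mutant libraries were above WT, by 0.68 ± 0.08 (adjusted p = 7.4e-06) and 0.60 ± 0.08 (adjusted p = 2e-05). Cox8a, the ubiquitous form of a small membrane subunit, was at 259 and 260 CPM (WT), 366 and 361 CPM (KO) and 363 and 362 CPM (D395A), and rose in both lines, by 0.49 ± 0.06 and 0.48 ± 0.06 (adjusted p = 1.5e-05 in each).

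**Figure D3:**
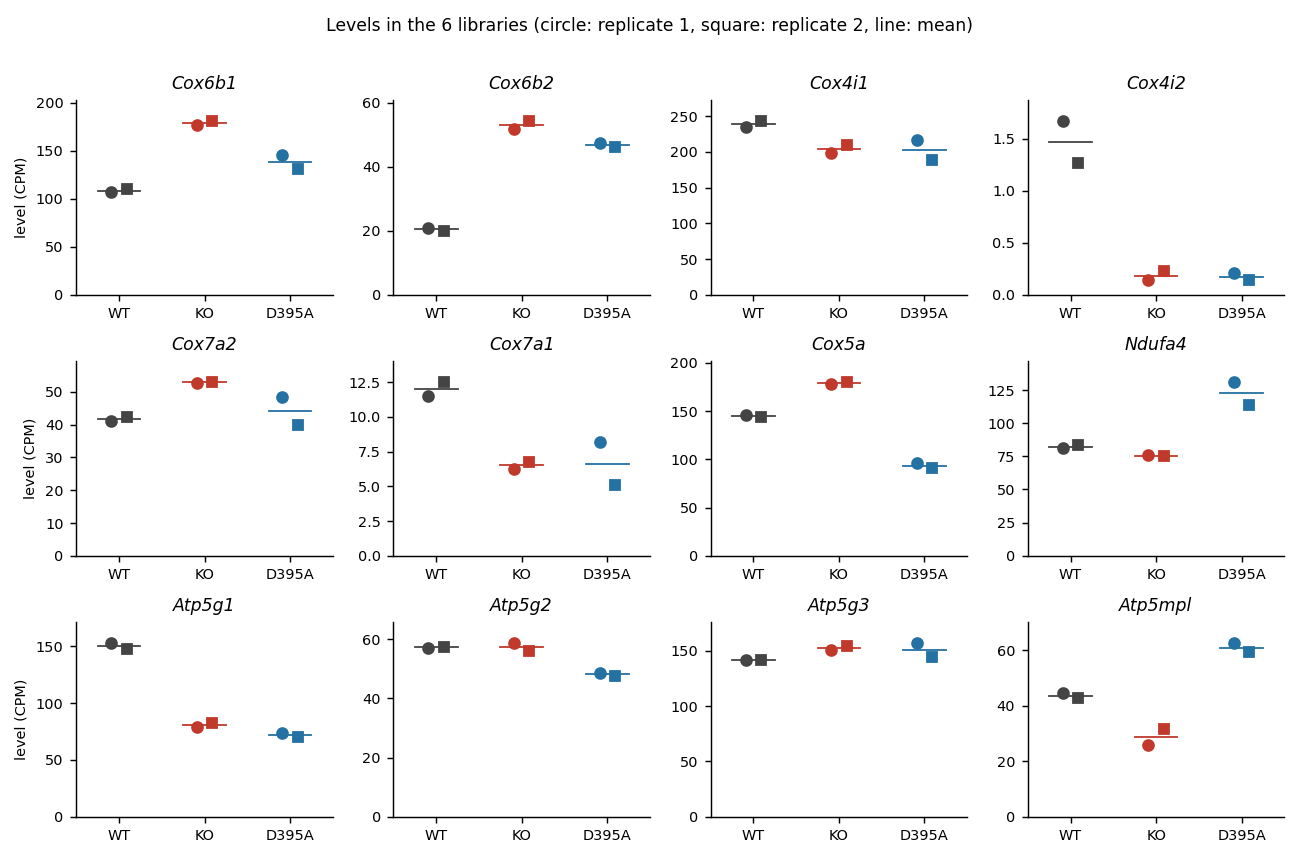
Level in CPM in each of the 6 libraries for isoform genes of complexes IV and V and for Cox5a, Ndufa4 and Atp5mpl, with circles for replicate 1, squares for replicate 2 and a line at the mean of each group; each axis starts at 0. Cox6b2 stands at 20.0 to 20.9 CPM in WT and 46.2 to 54.3 CPM in the mutant lines, while Cox5a and Atp5mpl lie on opposite sides of WT in the 2 lines.

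Cox5a and Ndufa4, which have no isoform partner among the members, differed between the mutant lines. Cox5a, a matrix-side subunit of complex IV (chr9:57521274-57532426), was at 146 and 144 CPM in WT cells, 178 and 180 CPM in KO cells and 95.8 and 90.5 CPM in D395A cells. KO lay above WT (0.30 ± 0.06, adjusted p = 0.00073) and D395A below it (-0.64 ± 0.06, adjusted p = 1.1e-06), a difference between the lines of -0.94 ± 0.06 (adjusted p = 7e-08). Of its exon bases, 12.8% lie under an exon of Gm26631 on the opposite strand. Ndufa4 (chr6:11900292-11907497) was at 81.5 and 83.3 CPM in the WT libraries, against 75.8 and 75.4 CPM in those of KO and 131 and 114 CPM in those of D395A. It rose in D395A (0.57 ± 0.07, adjusted p = 1.2e-05) and not past the test in KO (-0.12, adjusted p = 0.14; -0.18 and adjusted p = 0.040 without chromosomes 8, 11 and Y), and the lines differed by 0.69 ± 0.07 (adjusted p = 4.5e-06).

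Of the others, Cox5b, a zinc-binding subunit, was at 106 and 116 CPM (WT), 126 and 122 CPM (KO) and 129 and 109 CPM (D395A) and passed in neither line (0.15, adjusted p = 0.10; 0.10, adjusted p = 0.30). It was called in D395A without D395A replicate 2 (0.21, adjusted p = 0.017), and in KO with no filter (0.17, adjusted p = 0.032) or only the 2 groups fitted (0.17, adjusted p = 0.0067). Cox6c rose in both lines, by 0.72 and 0.46, and Cox7c in KO by 0.25 (adjusted p = 0.017). The Cox7c call was lost when scaled without chromosomes 8, 11 and Y.

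In complex V, the 3 genes for the c subunit encode the same mature protein with different import sequences, so a fall in one gene can be set beside the others. Atp5g1 (chr11:96068852-96075670) was at 153 and 148 CPM in WT cells, 78.9 and 82.3 CPM in KO cells and 74.2 and 70 CPM in D395A cells. KO lay at 0.536 times and D395A at 0.479 times WT, with -0.90 ± 0.06 (adjusted p = 5.8e-08) and -1.06 ± 0.06 (adjusted p = 1.3e-08). Atp5g2 was at 57.1 and 57.4 CPM in the WT libraries, against 58.7 and 55.9 CPM in those of KO and 48.5 and 47.7 CPM in those of D395A, and fell in D395A (-0.25, adjusted p = 0.003). Atp5g3 was at 142 and 142 CPM (WT), 151 and 154 CPM (KO) and 157 and 144 CPM (D395A) and passed in neither line (0.10, adjusted p = 0.17; 0.09, adjusted p = 0.24), but was called in D395A without D395A replicate 2 (0.15, adjusted p = 0.033) and in KO with only the 2 groups fitted (0.12, adjusted p = 0.020).

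Per kilobase of exon, Atp5g1 made up 23.9% and 23.2% of the 3 genes in WT cells, 13.3% and 13.9% in KO cells and 13% and 13.1% in D395A cells. The part of Atp5g3 was 50% and 50.3% in WT and 57.6% to 62.1% in the mutant libraries. Merged exon lengths were 4912 bases (Atp5g1), 1675 (Atp5g2) and 2181 (Atp5g3), and the order of these shares depends on them. Before division by length, Atp5g1 was the highest of the 3 in WT, at 153 and 148 CPM. The sum of the 3 was 352 and 347 CPM in WT cells, 289 and 292 CPM in KO cells and 280 and 262 CPM in D395A cells. All 4 mutant sums lay below both WT sums.

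Genes of the catalytic head and central stalk were called in both directions. Atp5b, the catalytic beta subunit, stood at 307 CPM per kilobase of exon in WT, next to Cox8a at 419 CPM per kilobase. These 2 values depend on the merged exon lengths, 4237 bases for Atp5b and 619 for Cox8a. Atp5b was at 1318 and 1287 CPM in the WT libraries, against 1039 and 1096 CPM in those of KO and 1209 and 1211 CPM in those of D395A. It fell in KO (-0.29 ± 0.06, adjusted p = 0.0015), and its D395A value of -0.11 did not pass (adjusted p = 0.15), although the ranges of D395A and WT were apart. It was called with DESeq2 (-0.12, adjusted p = 0.016) and when scaled without chromosomes 8, 11 and Y (-0.17, adjusted p = 0.027). Atp5c1, the gamma subunit that turns inside the head, was at 163 and 158 CPM (WT), 148 and 152 CPM (KO) and 151 and 134 CPM (D395A). Its D395A value of -0.18 (adjusted p = 0.036) was not called without WT replicate 1 (adjusted p = 0.19), WT replicate 2 (adjusted p = 0.10) or D395A replicate 2 (-0.10, adjusted p = 0.16). Atp5e, the epsilon subunit at the foot of the stalk, was at 20.6 and 20.7 CPM in WT cells, 39.3 and 36.6 CPM in KO cells and 39.7 and 31.5 CPM in D395A cells. It rose in both lines, by 0.88 ± 0.10 (adjusted p = 4.6e-06) and 0.78 ± 0.10 (adjusted p = 1.5e-05).

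The genes of the membrane part, several of which help to hold ATP synthase dimers together, rose in KO in 4 of 5 cases and in D395A in 3. These are 80% and 60% of only 5 genes, against 33.6% and 36.3% of all genes. Atp5l, subunit g, was at 53.1 and 50.7 CPM in the WT libraries, against 79.3 and 90.5 CPM in those of KO and 80.6 and 69.9 CPM in those of D395A (0.71, adjusted p = 7.5e-06; 0.53, adjusted p = 9.7e-05). It has stretches near-identical to 9 other loci (at least 95% identity over at least 150 bases), so its counts are uncertain. The same holds for Atp5md, with 20 such loci, which rose in both lines (0.33 and 0.41). The KO rise of Atp5j2 (0.28, adjusted p = 0.027) was not called when scaled without chromosomes 8, 11 and Y. The gene that differed was Atp5mpl, a small proteolipid (chr12:111961375-111966977), at 44.6 and 42.7 CPM (WT), 26.0 and 31.7 CPM (KO) and 62.6 and 59.2 CPM (D395A). KO lay below WT (-0.60 ± 0.09, adjusted p = 5.3e-05) and D395A above it (0.48 ± 0.08, adjusted p = 0.00024), and the lines differed by 1.07 ± 0.09 (adjusted p = 5e-07). In the peripheral stalk, Atp5h was at 116 and 114 CPM in WT cells, 86.7 and 87.6 CPM in KO cells and 90.9 and 82.5 CPM in D395A cells, log2 fold changes of -0.40 and -0.41. Atp5j rose by 0.32 (adjusted p = 0.014) and 0.33 (adjusted p = 0.012). Of its exon bases, 12.7% lie under opposite-strand exons, those of Gabpa among them.

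The mutant lines were compared with each other directly. D395A against KO gave 13 of 77 higher and 22 lower, 16.9% and 28.6%, against 26.5% higher and 23.8% lower among all genes. Complex I made up 5 of the rises and 11 of the falls. Besides the genes named above, Atp5k, subunit e of the ATP synthase, was lower in D395A (14.9 and 13.3 CPM) than in KO (18.0 and 15.9 CPM), at -0.27 (adjusted p = 0.042), a call lost without KO replicate 1 (-0.19, adjusted p = 0.24) or D395A replicate 2 (-0.19, adjusted p = 0.25). Cox5a and Atp5mpl were the members called in opposite directions against WT in the 2 lines. These counts depended on single libraries: 8 were higher without KO replicate 1, and the lower calls numbered 14 without KO replicate 1, 13 without KO replicate 2 and 9 without D395A replicate 2.

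Several of the falling members lie on chromosomes 8 and 11, where genes of all kinds were lower in both mutant lines. On chromosome 8, 55.4% of 812 genes tested were called lower in KO and 52% in D395A, with median log2 fold changes of -0.48 and -0.35. On chromosome 11, 54.6% of 1302 genes were lower in KO and 58.1% in D395A, with medians of -0.42 and -0.49. The members there are Ndufb7, Ndufa13 and Cox4i1 on chromosome 8 and Uqcr10, Uqcrq, Atp5h and Atp5g1 on chromosome 11. Of these 7, 5 fell in each line. Ndufb7 (-0.68 in each line) and Atp5g1 (-0.90 in KO and -1.06 in D395A) lay further below WT than the chromosome's median in both. Uqcrq, at -0.49 ± 0.07 in KO and -0.54 ± 0.07 in D395A, lay close to the chromosome 11 medians. Leaving out the members on these chromosomes and Y gave 33 higher and 13 lower of 70 in KO, and 28 higher and 20 lower in D395A. These are 47.1% and 18.6% in KO and 40% and 28.6% in D395A, where all genes off these chromosomes gave 35.9% and 29.1% in KO and 39.2% and 30.6% in D395A, so the D395A shares lie close to those of all genes. The part of the difference across these chromosomes in the members' falls was not tested.

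The 2 D395A libraries differed from each other in a shared direction. Of the 74 members with a mean of at least 2 CPM, 65 were higher in D395A replicate 1 than in replicate 2, with a median log2 ratio of 0.16, where the median over all genes was -0.03. In KO 27 of the 74 and in WT 36 were higher in replicate 1. D395A replicate 1 is also the shallowest library. The log2 ratio of the D395A replicates correlated with exon length at a Spearman rho of -0.25 over the 74 members and -0.26 over 15485 genes, so shorter genes were higher in replicate 1; these are descriptions across genes of 2 libraries, and genes are not independent replicates. Without D395A replicate 1 the median log2 fold change of the members in D395A against WT was 0.00, in place of 0.11.

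**Figure D4:**
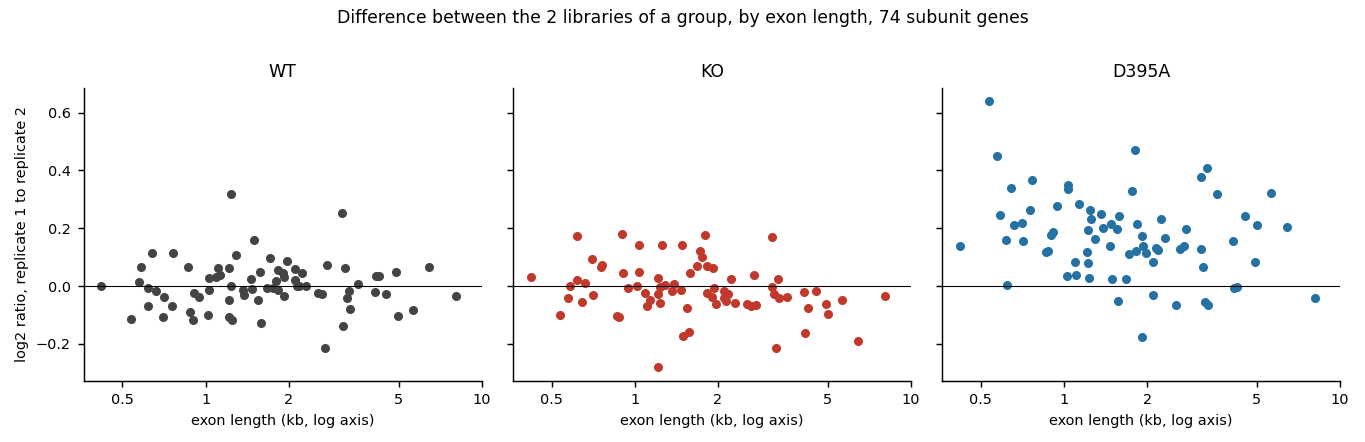
Log2 ratio of replicate 1 to replicate 2 of the 74 subunit genes with a mean of at least 2 CPM, against exon length in kilobases on a log axis, for WT, KO and D395A. In D395A 65 of the 74 points lie above 0, with a median of 0.16, while in WT 36 and in KO 27 lie above 0.

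Split at the members' median exon length of 1578 bases, the shorter 37 of the 74 gave 20 higher and 8 lower in KO and 17 higher and 6 lower in D395A. The longer 37 gave 14 higher and 8 lower in KO, and 11 higher and 17 lower in D395A. Among all genes split at the same length, the shares called higher and lower were 28% and 26.5% for the shorter and 34.4% and 33.4% for the longer genes in KO, and 31.1% and 28.4% and 37% and 34.8% in D395A. Those of the members were 54.1% and 21.6% for the shorter and 37.8% and 21.6% for the longer in KO, and 45.9% and 16.2% and 29.7% and 45.9% in D395A. The fold changes of the members correlated with exon length at a rho of -0.20 in KO and -0.25 in D395A, against 0.04 and 0.03 over all genes. The part of length and of D395A replicate 1 in the members' changes was not tested.

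Other genes of the pathway were called in both directions as well, and their shares are read against 33.6% higher and 32.6% lower of all genes in KO and 36.3% and 34% in D395A. Of 16 complex I assembly factors 5 rose and 3 fell in KO (31.2% and 18.8%), and 7 rose and 6 fell in D395A (43.8% and 37.5%). Ndufaf1 was at 22.9 and 21.1 CPM in the WT libraries, against 52.6 and 54.6 CPM in those of KO and 37.1 and 35.1 CPM in those of D395A, and Ndufaf4 at 18.1 and 17.2 CPM, 33.4 and 37.1 CPM, and 43.5 and 43.6 CPM. Tmem186 was lower in both lines, with -0.96 in KO and -1.19 in D395A. Of the 19 tested complex IV assembly factors 7 rose and 5 fell in KO (36.8% and 26.3%) and 6 rose and 6 fell in D395A (31.6% each), near the shares of all genes, with Cox19 (1.48 and 1.16) and Coa7 (1.09 and 0.90) rising and Pet100 (-1.23 and -0.57) falling in both. Cox20, Sco2 and Pet117 of that list were listed at 0 throughout. For complex V, Tmem70, which helps to build the c ring, rose from 24.9 and 24.6 CPM in WT to 55.5 and 57.0 CPM (KO) and 55.5 and 54.7 CPM (D395A). The assembly lists for complex II gave 2 higher and 1 lower of 4 in KO and 2 and 0 in D395A, those for complex III 2 and 1 of 6 in KO and 2 and 3 in D395A, and those for complex V 2 and 1 of 4 in KO and 3 and 1 in D395A.

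The mobile electron carrier cytochrome c was split between the lines. Cycs was at 53.8 and 57.1 CPM (WT), 34.9 and 37.8 CPM (KO) and 78.5 and 66.9 CPM (D395A), with -0.61 in KO (adjusted p = 2.8e-05) and 0.39 in D395A (adjusted p = 0.00087). Atpif1, the inhibitor of the ATP synthase, showed the same split at -0.20 (adjusted p = 0.036) and 0.32 (adjusted p = 0.0021). Cyc1, the cytochrome of complex III, fell in both lines (-0.25 and -0.49), and Ndufab1 rose in KO by 0.35.

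Of 13 regulators of respiratory chain transcription 2 rose and 5 fell in KO (15.4% and 38.5%, against 33.6% and 32.6% of all genes), and 4 rose and 3 fell in D395A (30.8% and 23.1%, against 36.3% and 34%). The 5 that fell in KO were Yy1 (-0.85), the transcription factor Myc (-1.16), the coactivator Ppargc1b (-0.40), the low-oxygen factor Hif1a (-0.26) and Nrf1 (-0.20), named after their values were seen. Esrra, a nuclear receptor that drives these genes, was at 13.5 and 11.7 CPM in WT cells, 29.5 and 24.1 CPM in KO cells and 21.2 and 20.7 CPM in D395A cells, higher in all mutant libraries (1.08 and 0.73). The coactivator Pprc1 rose by 0.41 and 0.33. Of 12 genes for maintenance and transcription of mitochondrial DNA 1 rose and 6 fell in KO (8.33% and 50%), and 2 rose and 6 fell in D395A (16.7% and 50%). Ssbp1, its single-strand binding protein, was at 71.4 and 67.3 CPM in the WT libraries, against 37.2 and 39.2 CPM in those of KO and 40.0 and 41.9 CPM in those of D395A, and Polg2 and Tfb1m also fell in both lines.

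Genes of the citric acid cycle, which feeds the chain, were listed with the pyruvate dehydrogenase genes Pdha1, Pdhb and Dlat. In this list 4 of 16 genes rose and 6 fell in KO (25% and 37.5%, against 33.6% and 32.6% of all genes), and 4 rose and 7 fell in D395A (25% and 43.8%, against 36.3% and 34%). Pdha1 was among the rises in each line (0.50 and 0.44). Fh1, fumarase, which acts on the product of complex II, was at 115 and 120 CPM (WT), 46.0 and 43.3 CPM (KO) and 78.6 and 75.9 CPM (D395A). The groups did not overlap, with -1.39 (adjusted p = 1.6e-09) in KO and -0.61 (adjusted p = 2e-06) in D395A. Idh3b rose and Idh3g fell in both lines, although both are subunits of NAD-dependent isocitrate dehydrogenase (0.94 and 0.34 against -0.63 and -0.69). Of 13 coenzyme Q genes 4 rose and 3 fell in KO (30.8% and 23.1%), and 3 rose and 4 fell in D395A (23.1% and 30.8%).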

How the data were processed

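The authors deposited 1 table of raw read counts per gene symbol for each library. Per the submitters' processing notes, Trimmomatic 0.36, STAR 2.7 and HTSeq 0.11.2 had been used with mm10; the strand setting and the gene annotation behind the counts were not given in the sources used here. Counts of genes under an opposite-strand exon (26 members, 10 of them over 10% of their exon bases) or with near-identical copies elsewhere (23 members) are uncertain. HTSeq's summary lines, 29% to 44.2% of the total, were left out. Genes were filtered with filterByExpr (15663 kept), scaled by trimmed means (TMM) and tested with edgeR 4.0.16 in R 4.3.3, by the quasi-likelihood F test with all 6 libraries in 1 model (3 residual degrees of freedom, biological coefficient of variation 6%), and p-values were adjusted by Benjamini-Hochberg over all genes of a comparison. "Called" means an adjusted p under 0.05, and fold changes are log2 values with the standard error of the fit. Replicate libraries differed beyond sampling noise (chi-square per degree of freedom 3.19 in WT, 6.48 in KO and 11.1 in D395A). The procedure was run on simulated data with the same biological variation, 6%, for every gene and group. That run cannot show how calls behave where groups differ in noise. One count was worth 0.0246 CPM in WT replicate 1 and 0.0426 CPM in D395A replicate 1, and intervals cover counting error only. Positions, exon lengths (all exons of a gene merged) and overlaps came from GENCODE M21 (GRCm38), which matched 97.9% of the symbols and all 84 members.

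The members and gene lists (assembly factors of each complex, other subunits and carriers, regulators, mitochondrial DNA genes, citric acid cycle, coenzyme Q, and stem cell, fibroblast, muscle and testis markers) were chosen with earlier results of these data known. Members described with all library values are core subunits, isoforms that replace each other, up to 2 rises and 2 falls per complex and comparison with a mean of at least 2 CPM, and members called in opposite directions; genes of a list are up to 4 by lowest p. The values of 1 member are not reported here. Ndufa8, Uqcrb, Cox6c, Cox7c and Atp5j were named after their values were seen. Alternatives were other scalings, filters, tools (DESeq2 1.42.0, limma 3.58.1), subsets and leaving out each library.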

Additional observations from a re-analysis of the deposited data

How the results depend on the processing

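The 144 values of named members gave 1987 comparisons with an alternative. Of these, 1863 stayed on the same side of the threshold, 83 lost and 41 gained a call. Where either setting gave a call, 0 changed direction. The direction of values called in neither setting was not compared. The counts of members called in KO and D395A against WT stayed within 1.5 times under the alternatives run: leaving out 1 library gave 23 to 29 higher and 13 to 17 lower in KO, and 21 to 35 higher and 17 to 26 lower in D395A. D395A against KO was less stable, with 8 to 16 higher and 9 to 33 lower. With 1 library left in a group, that library is assumed to vary like the others. DESeq2 kept 49 of 52, 52 of 53 and 26 of 35 calls in the 3 comparisons. Replicate numbers come from the titles. Libraries with the same number did not deviate together (correlations of 0.0141 for WT and KO, 0.00964 for WT and D395A, and -0.21 for KO and D395A). With 2 libraries per group the deviations mirror each other, so -0.21 equally pairs KO replicate 1 with D395A replicate 2. These values therefore cannot exclude a shared batch. The replicate block gave 34 higher and 17 lower in KO, 28 and 25 in D395A, and 12 and 22 between the lines. It lost Cox7b2 in KO, and Atp5g1 (-0.16, adjusted p = 0.056) and Cox6a2 between the lines. Leaving out chromosomes 8, 11 and Y before scaling gave 26 higher and 17 lower in KO and 24 higher and 21 lower in D395A. Depth limits Cox4i2, Cox6a2 and Cox7b2, which had 137, 78 and 94 counts in all.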
